A study of Mus musculus with 3 samples.

Results

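Aortic CD8 T cells were examined here as 179 of 8471 cell barcodes from a CITE-seq experiment on leukocytes of the mouse aorta, in which each cell gave counts of transcripts and of DNA-tagged antibodies bound to its surface. Members were chosen by measured values. A member had one hashtag antibody at least 3 times above the next, at most 10% mitochondrial transcripts, at least 1000 UMIs (unique molecular identifiers, which count captured RNA molecules), at least 3 UMIs of Cd3d, Cd3e and Cd3g together, no UMI of Rag1, Dntt, Trdc or Cd79a, fewer than 10 C1qa, C1qb and C1qc UMIs per 10000, at least 10 counts of the CD8a antibody and at least 5 times as many CD8a as CD4 antibody counts. Of the 5894 cells left by the hashtag, mitochondrial and UMI limits, 953 passed the Cd3 limit, 187 passed all transcript limits with at least 10 CD8a counts, and 179 were left by the comparison with CD4. The lowest CD8a counts of members were 10, 11 and 12. Just outside the limits lay 6 T cells with 5 to 9 CD8a counts and 8 with at least 10 CD8a counts but under 5 times the CD4 count.

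The cells came from 5 Jak2WT mice and 5 Jak2V617F Myel mice, 10 in all, each marked by its own hashtag. Jak2V617F Myel mice carried the Jak2V617F Flex allele and a LysM-Cre, in which the Lysozyme M promoter drives recombination mainly in myeloid cells, so that T cells are not the targeted lineage. Jak2WT mice were their littermate controls, on the C57BL/6 background. An aneurysm was seen at collection in 2 of the mutant mice (mice 7 and 9), and the other 3 (mice 6, 8 and 10) had none and are called the dilation group. The ages of these mice were not given in the sources used here, and both sexes were used in the study. All mice had received 2 µg of a fluorescent CD45.2 antibody into the blood 5 min before they were killed, cells carrying that label were left out, and the genotypes were sorted with CD45.2 antibodies of different dyes in about equal numbers, so genotype and sorting dye cannot be told apart. The aortas had been digested with enzymes for 45 min before the cells were stained. All 10 mice were pooled in 1 capture run, and the transcript, antibody and hashtag libraries shared 8465 barcodes.

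CD8 T cells recognise peptides on MHC class I through a T cell receptor held by the CD3 complex, with CD8 as coreceptor, and on activation can kill target cells and release interferon-gamma and chemokines. Naive cells carry CCR7, which leads them into lymph nodes, and express the transcription factors LEF1 and TCF1. After antigen encounter surface CD44, which binds hyaluronan of the tissue, rises and stays high on memory cells. In arteries most T cells are known from the outer layer of the wall and the fat and lymphoid tissue around it.

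The label of the members was checked on markers. Cd8b1, the CD8 beta chain (chromosome 6, 71322788 to 71337494, GRCm38), had a UMI in 96.1% of members at 716.1 CPM, its UMIs scaled to a fixed total of UMIs in all genes. Cd8a, which encodes the chain bound by the gating antibody (chromosome 6, 71373427 to 71379173), had one in 87.2% at 288.0 CPM. Trac, the constant region of the T cell receptor alpha chain (chromosome 14, 54220521 to 54224206), had one in 91.6%, and Ms4a4b, a membrane protein of T and NK cells, in 98.3%. After each cell was thinned to 1000 UMIs, these shares were 45.3% for Cd8b1, 17.9% for Cd8a, 30.7% for Trac and 63.1% for Ms4a4b, against 0.144%, 0.0%, 0.144% and 1.87% in 694 B cells, which should lack them. These B cells had at least 3 UMIs of Cd79a and Cd79b together and none of Cd3d, Cd3e or Cd3g. That choice left out B cells carrying Cd3 RNA, so their shares can lie below the background of free RNA. The 4 markers thus stood above their level in B cells chosen in this way. Ms4a4b did not set members apart from 76 NK cells, chosen with fewer than 3 Cd3 UMIs. Its thinned share was 61.8% in these NK cells, whereas Cd8a and Cd8b1 were at 0 there.

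Of the listed genes of other lymphocytes, Cd4, Foxp3, Klrb1c, Ncr1, Rag2 and Ptcra were at 0 in all 179 members. A count of 0 allows a share of up to 1.68% of members with a UMI. The gate limited the CD4 antibody and excluded Rag1 and Dntt, which bears on Cd4 and Rag2. Most other genes of these lists were detected, with 8 of 10 CD4 lineage, 11 of 14 innate-like T and NK and 18 of 20 thymic maturation genes. Tyrobp had 85 UMIs in 51 members, 35.3% of them in 1 cell of mouse 3. Zbtb16, the transcription factor of NKT cells, was at 1.13 CPM. The 7 members without a Cd8b1 UMI included 3 from mouse 7. Macrophage markers were present at a low level, with all 13 of 13 listed genes detected and a summed 653.9 CPM, between 364.4 and 859.5 in Jak2WT mice, 518.4 and 799.6 in the dilation group and 578.9 and 715.6 in mice with aneurysm. Their part in the results was not tested. B cell markers reached 153.0 CPM (7 of 9 genes, with Cd79a and Pax5 at 0), markers of neutrophils, mast cells and platelets 58.7 CPM (7 of 9, with Csf3r and Gp9 at 0) and markers of the vessel wall 53.7 CPM (7 of 10, with Myh11, Cdh5 and Krt8 at 0). Of the neutrophil, mast cell and platelet markers, 35.6% came from 1 member of mouse 10, and the highest dilation mouse was at 220.2 CPM. Dendritic cell markers reached 672.6 CPM (8 of 10, with Xcr1 and Clec9a at 0), of which 63.5% came from 1 member of mouse 3. This cell held 378 of the 564 Cd74 UMIs of all members and 560 counts of the MHC class II antibody.

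Members had a median of 9477 UMIs (2253 to 34610) and 497 antibody counts, and summed to 1770815 UMIs. The number of members per mouse was 20, 17, 47, 6 and 12 in Jak2WT mice 1 to 5, 7, 13 and 18 in dilation mice 6, 8 and 10, and 21 and 18 in aneurysm mice 7 and 9. Median depth per mouse lay between 7087 and 10388 UMIs. Mice 4 and 6, with fewer than 10 members each, entered no comparison of transcripts between groups.

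Surface CD44, which the gate did not use, was 10 counts or more on 84 members (46.9%, CD44+) and lower on 95 (53.1%, CD44-). Over all members its count had quartiles of 2, 7 and 19.5 and a highest value of 175, so the limit of 10 lay within a continuous spread of counts. This limit and the comparisons that rest on it were chosen after seeing the data.

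**Figure D1:**
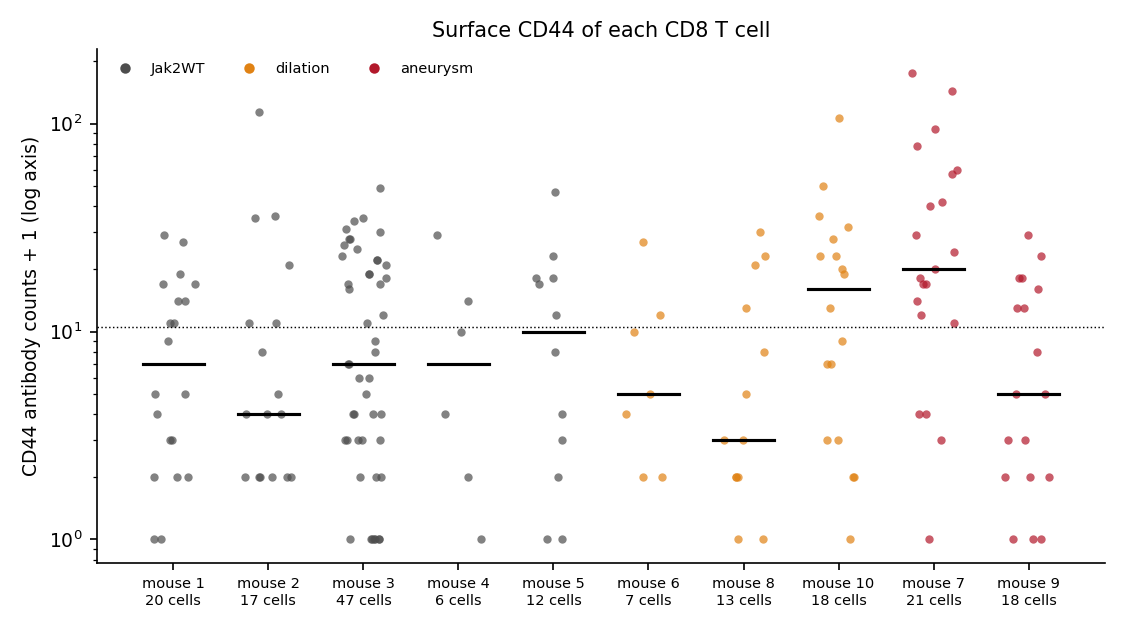
CD44 antibody count + 1 of each of the 179 members on a log axis, by mouse, with black lines at the median of each mouse and a dotted line at the limit of 10 counts; grey points are Jak2WT, orange dilation and red aneurysm mice. Mouse 7 has the highest median, 19 counts, against 2 to 15 in the other mice.

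CD44+ cells made up 45.0%, 35.3%, 44.7%, 33.3% and 50.0% of members in Jak2WT mice 1 to 5, 28.6%, 30.8% and 55.6% in dilation mice 6, 8 and 10, and 81.0% and 38.9% in aneurysm mice 7 and 9. Mouse 7 held 17 of the 84 CD44+ cells and stood above the other mice, with a counting interval of 60.0% to 92.3% (95%, Wilson). The intervals of mice 4 and 6 ran from 9.68% to 70.0% and from 8.22% to 64.1%. Gene levels by this state that moved by over 1.5 times without mouse 7 are therefore also given without it.

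Transcript levels over the pooled cells of each state are a description, since the cells of a state come unequally from the mice. The levels of 4 genes of naive and recirculating cells were lower in CD44+ cells. Lef1 (chromosome 3, 131110471 to 131224356) was at 690.6 CPM in CD44- and 296.1 in CD44+ cells, and Ccr7 (chromosome 11, 99144196 to 99155077) at 709.1 and 320.5. Dapl1, a gene of unstimulated T cells, was at 331.5 and 159.1 CPM, and Igfbp4, which encodes a binding protein of insulin-like growth factors, at 146.7 and 37.6. All 4 transcripts were thus still found in the CD44+ cells, Lef1 with a UMI in 67 of 84 of them and Ccr7 in 58.

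Some genes of effector and memory cells ran the other way. Ccl5, the chemokine RANTES (chromosome 11, 83525778 to 83530518), was at 449.3 CPM in CD44- and 2821 in CD44+ cells, and at 2883 in the latter without mouse 7. A Ccl5 UMI was found in 59 CD44+ and 16 CD44- cells, and of the 42 members with at least 10 Ccl5 UMIs, 37 were CD44+. High Ccl5 was therefore found in 37 of 84 CD44+ cells and in 5 of 95 CD44- cells. Ctla2a, a cysteine protease inhibitor of activated T cells, was at 42.7 and 384.6 CPM. Ly6c2, a surface antigen of memory CD8 T cells (chromosome 15, 75108158 to 75111970), was at 264.5 and 770.2 CPM, and its reads cannot be told apart with certainty from those of its near copy Ly6c1. Nkg7, a granule protein of cytotoxic cells (chromosome 7, 43437073 to 43438249), was at 485.1 and 713.8 CPM and had a UMI in 87 CD44- and 77 CD44+ cells. After thinning, 43.6% of all members had an Nkg7 UMI, against 0.288% of B cells.

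Granzymes, the proteases of cytotoxic granules, were rare. A UMI of Gzma, Gzmb or Gzmk was found in 20 of 179 members, of which 17 were CD44+ and 8 came from mouse 7. Gzmk was at 3.46 CPM in CD44- (1 cell) and 40.9 CPM in CD44+ cells (9 cells, 28.5 CPM without mouse 7). Gzma reached 201.1 CPM in CD44+ against 9.24 in CD44- cells, but 1 cell of mouse 4 held 45.8% of the 190 Gzma UMIs and 75.2% of the 113 Gzmb UMIs. Ifng, which encodes interferon-gamma, had 54 UMIs in 11 members, 10 of them CD44+ (58.6 CPM, 49.2 without mouse 7). Granzyme and Ifng transcripts were thus seen in few cells, most of them CD44+.

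The CD44+ levels of 3 of the genes described here moved by over 1.5 times without mouse 7. Cxcr6, a chemokine receptor of resident T cells, was at 16.2 CPM in CD44- and 74.0 in CD44+ cells, and at 42.7 in the latter without mouse 7. Pdcd1, which encodes PD-1, was at 1.16 and 33.1 CPM, and at 15.5 in CD44+ cells without mouse 7. Xcl1, a chemokine that draws cross-presenting dendritic cells, was at 0 and 74.0 CPM, and at 38.9 in CD44+ cells without mouse 7. All 16 listed genes of tissue residency had a UMI in members, at very different levels. Rgs1 had one in 39 CD44- and 59 CD44+ cells, and Cd69 was detected in all 10 mice. At the low end, Zfp683 had 1 UMI in all members and Itga1 5. Lag3 was at 3.39 CPM, Havcr2 at 2.26 and Tigit at 1.69 over all members, too low to be compared. Itgb1, an integrin chain that is high on memory T cells, was at 45.0 and 179.0 CPM, and at 128.2 in CD44+ cells without mouse 7, and S100a4, a calcium-binding protein of memory cells, at 13.9 and 317.1. Dendritic cell markers were at 231.0 CPM in CD44- and 1095 in CD44+ cells, and at 264.9 in the latter without the MHC class II-rich member of mouse 3. Markers of gamma-delta T cells and ILC2 were at 37.0 and 176.8 CPM, and the median depth was 8898 and 10444 UMIs. Their part in these levels and in the test by CD44 was not tested.

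**Figure D2:**
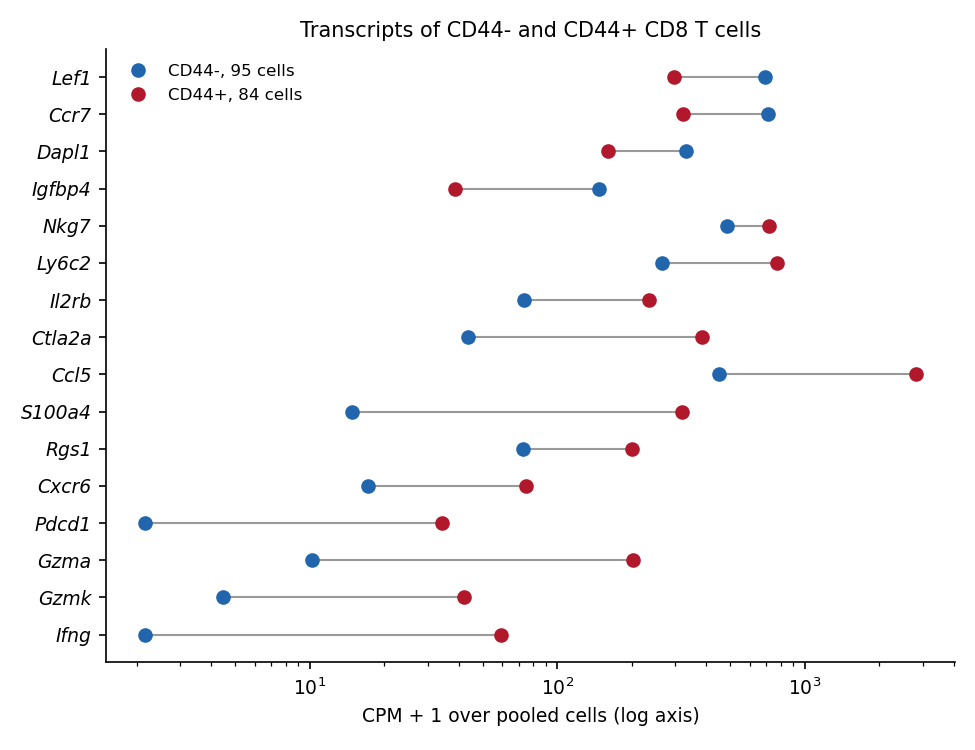
CPM + 1 on a log axis over the pooled cells of the 2 states set by CD44, for 16 genes; blue points are the 95 CD44- and red points the 84 CD44+ cells, joined by a line for each gene. Lef1, Ccr7, Dapl1 and Igfbp4 lie lower in CD44+ cells, and the other 12 genes lie higher.

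Other surface proteins followed CD44. The Ly6C antibody had a mean of 3.59 counts in CD44- and 14.4 in CD44+ cells. CD103, the integrin chain that binds E-cadherin, ran the other way, at 11.8 and 4.30 counts, and its partner ITGB7 at 12.7 and 4.87. Higher CD103 was thus found on CD44- cells. ICAM1 was at 5.34 and 10.2 counts, the activating receptor CD226 at 5.15 and 7.69, and CD5, which is set by the strength of T cell receptor signals, at 112.3 and 145.0. These are unscaled means over pooled cells with no test, and none of the 6 moved by over 1.5 times without mouse 7. Antibodies typical of myeloid and antigen-presenting cells were also higher in CD44+ cells. MHC class II was at 8.77 and 28.95 counts, CD11b at 7.74 and 21.4 and CD11c at 0.390 and 1.46. Of all counts on members, 1 cell held 17.2% for MHC class II and 1 cell 35.7% for CD11b. The part of such signal in the CD44+ state was not tested. The median antibody total per cell was 444 in CD44- and 531 in CD44+ cells. Its part in the smaller rises, such as that of CD5, was not tested.

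Few members were in cycle by their transcripts. A UMI of Mki67 or Top2a was found in 17 of 179 members, and 1 cell of mouse 10 held 60.0% of the 85 Mki67 UMIs. Of the 2 constant regions of the T cell receptor beta chain, Trbc1 was above Trbc2 in 47 members and at 0 in 70, although reads of these near copies may be split between them.

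To test transcripts against surface CD44 within mice, UMIs were summed per mouse over CD44+ and over CD44- members in the 6 mice with at least 5 cells of both (mice 1, 2, 3, 5, 9 and 10), so that mice 7 and 8, with 4 cells on one side, and mice 4 and 6 did not enter. In an edgeR quasi-likelihood fit with the mouse as a block, 19 of 936 genes (2.03%) passed a Benjamini-Hochberg adjusted p of 0.05, 16 higher (1.71%) and 3 lower (0.321%) in CD44+ cells. The chemokine Ccl5, the protease inhibitor Ctla2a, S100a6 and the galectin Lgals1 rose most, and the naive genes Lef1, Ccr7 and Dapl1 fell. Cd44 itself was given no test.

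Ccl5 was at 892.4, 3940 and 5455 CPM (lowest, median and highest mouse) in CD44+ cells and at 0, 10.8 and 732.7 CPM in CD44- cells. It was higher in every one of the 6 mice and the states did not overlap. Its difference was 4.13 ± 0.48 on the log2 scale (SE, edgeR adjusted p = 4.44e-06). Ctla2a was at 166.4, 265.6 and 926.9 CPM against 10.5, 19.1 and 102.6, a difference of 3.74 ± 0.33 (adjusted p = 1.17e-07). S100a6, a calcium-binding protein, was at 159.9, 248.6 and 755.8 CPM against 10.5, 29.6 and 102.6, a difference of 3.15 ± 0.36 (adjusted p = 4.44e-06). For these 3 genes the lowest CD44+ value lay above the highest CD44- value, and each of them passed under every alternative in which it could be tested (13 for Ccl5, 12 for Ctla2a and 11 for S100a6).

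**Figure D3:**
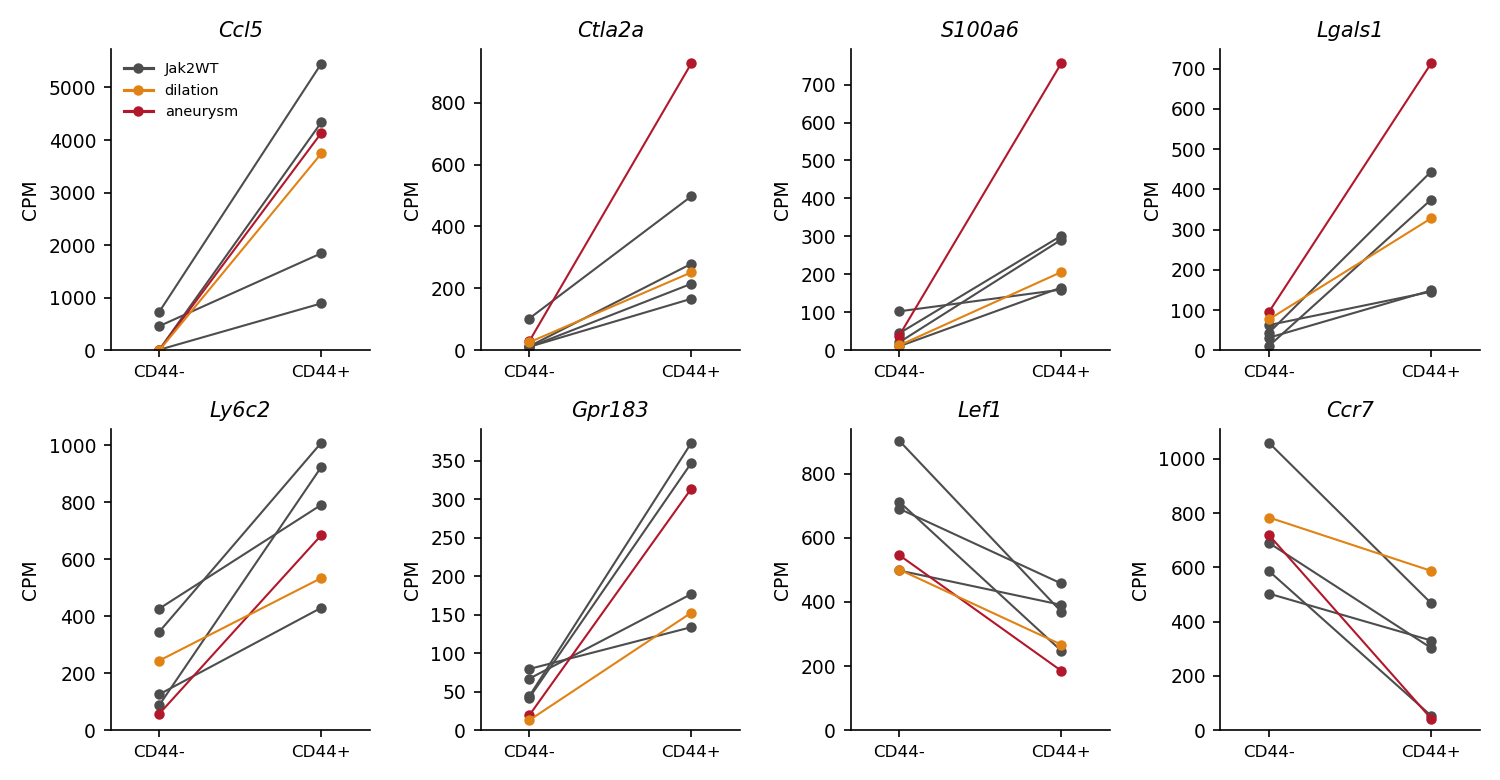
CPM of 8 genes in CD44- and CD44+ members of the same mouse, with 1 line for each of the 6 mice (grey Jak2WT, orange dilation, red aneurysm). The lines of Ccl5, Ctla2a, S100a6, Lgals1, Ly6c2 and Gpr183 rise in all 6 mice, and those of Lef1 and Ccr7 fall in all 6.

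Of 20 listed cytotoxic and effector genes, 5 could be tested and 1 rose, Ccl5, with a list median of 0.44 against 0.01 over all genes. Nkg7 differed by 0.61 ± 0.17 and was higher in all 6 mice, but did not pass (adjusted p = 0.0645). Of 19 memory-like genes, 5 were tested and 2 rose, Ly6c2 by 1.70 ± 0.25 and Sh2d2a, a signalling adaptor of activated T cells, by 1.42 ± 0.26, both without overlap, with a list median of 0.71. Of 13 naive and recirculation genes, 10 were tested, 3 fell and none rose, with a median of -0.20. Lef1 was at 498.2, 618.7 and 903.3 CPM (lowest, median and highest mouse) in CD44- cells and at 185.4, 318.5 and 457.7 in CD44+ cells, a difference of -1.06 ± 0.18 without overlap (adjusted p = 0.000553). Ccr7 fell by 1.35 ± 0.27 with adjusted p = 0.00374, and Dapl1 fell by 1.16 ± 0.27 with adjusted p = 0.0165, both lower in all 6 mice with overlapping ranges. S1pr1, the receptor for exit from tissue into lymph, differed by -0.21, Klf2, which drives it, by -0.33 and Il7r, the IL-7 receptor, by -0.11, and none of these passed.

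Of 4 tested chemokine receptors and related genes, Gpr183, the oxysterol receptor EBI2, rose by 2.12 ± 0.35 without overlap, Cxcr4, the receptor of CXCL12, by 0.98 ± 0.25, and Ccr7 fell. The other genes that passed and rose were the galectin Lgals1 (2.43), Ahnak, a large scaffold protein of T cell calcium signals (2.06), S100a10 (1.02), Dennd4a (0.99), the chromatin protein Hmgb2 (0.96), Gimap4 (0.93), Zfp36l2 (0.81), Gapdh (0.72) and the actin gene Actg1 (0.52). The only residency gene tested, Rgs2, differed by 0.66 with adjusted p = 0.222, and none of 13 immediate-early and heat-shock genes passed (median 0.47). Cd8b1, a marker of the whole population, differed by -0.10 ± 0.15 and did not pass. Some calls were lost under alternatives. With DESeq2, Sh2d2a, Ccr7, Dapl1, Dennd4a, Hmgb2 and Cxcr4 did not pass, and with HTODemux calls or fewer cells per sum Dapl1, Dennd4a and Cxcr4 did not. Dapl1 also failed without mouse 10 and with library totals as scaling, Hmgb2 without mouse 1 or 2, Dennd4a without mouse 1, 2 or 9 and Cxcr4 without mouse 1, 2, 5, 9 or 10. Without mouse 3, 29 genes passed. Without the mouse as a block 12 genes passed, 10 higher and 2 lower, and Ccr7 was not among them. Divided at the median CD44 count in place of 10, 18 genes passed, 17 of them among the 19.

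CD24 is high on immature thymocytes and falls as T cells mature, and its median was 4 counts per member. Its gene Cd24a had 1 UMI over the members of mice 3, 9 and 10. A split at so low a count, in cells chosen without Rag1 and Dntt, could not decide on maturation. In the 7 mice with at least 5 cells on each side of the median CD24 count, 0 of 1017 genes (0.0%) passed with edgeR, 50 had an unadjusted p under 0.05 and DESeq2 called 0. The smallest p belonged to Mtdh (-0.66), Npc2 (0.48) and Gm12840 (-0.81), each with adjusted p = 0.96.

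CD4 T cells of the same aortas, chosen by the same rule with the 2 antibodies exchanged, numbered 184 with a median of 6960 UMIs. The comparison was made within the 8 mice with at least 10 cells of each kind (all but mice 4 and 6), by edgeR with the mouse as a block. Of 1905 genes, 280 (14.7%) passed, 154 higher (8.08%) and 126 lower (6.61%) in CD8 T cells. Of the lists, the tested cytotoxic and effector genes (6 of 20) were mostly higher in CD8 T cells. The tested immediate-early and heat-shock genes (20 of 22) and residency genes (6 of 16) were mostly lower. With library totals in place of TMM factors, a scaling chosen after seeing the data, the median difference over all genes moved from -0.01 to -0.13 and 308 genes passed, 96 higher and 212 lower, so that the higher share of calls went from 55.0% to 31.2%. None of the 280 genes changed sign and 222 of them still passed. Ccr7 and Stat4 were among those that did not, and Stat4 also failed without mouse 1, 3, 5, 7, 8 or 10. Without the mouse as a block 165 genes passed, of which 163 were among the 280.

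Cd8b1 served as a check, since its protein pairs with that bound by the gating antibody. It was at 391.3, 793.6 and 1020 CPM in CD8 T cells (lowest, median and highest mouse) and at 0, 4.53 and 39.0 in CD4 T cells, a difference of 6.55 ± 0.28 (adjusted p = 2.51e-12). Runx3, the transcription factor of the CD8 lineage, was higher by 1.07 ± 0.26 and rose in 7 of 8 mice. Among 12 tested genes of the T cell receptor complex and coreceptors, none was higher and Cd28 was lower (-0.99 ± 0.22). Trac differed by -0.37 with adjusted p = 0.0531, and passed as lower when library totals were used.

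Of the 6 tested cytotoxic and effector genes 4 rose and none fell, with a list median of 2.00 against -0.01 over all genes, although 14 of the list's 20 genes were too low to be tested. Nkg7 was at 333.5, 602.5 and 871.2 CPM in CD8 T cells against 0, 117.3 and 337.5 in CD4 T cells, a difference of 2.38 ± 0.32 (adjusted p = 3.58e-05). Ccl5 was at 352.8, 2133 and 2867 CPM against 0, 562.0 and 1047, a difference of 2.05 ± 0.35 (adjusted p = 0.000359). Both ranges overlapped, Nkg7 being higher in all 8 mice and Ccl5 in 7. Ctsw, a cysteine protease of cytotoxic cells, rose by 1.95 ± 0.24, and Plac8, a cysteine-rich protein of myeloid and lymphoid cells (chromosome 5, 100553725 to 100572245), by 2.83 ± 0.45. The chemokine Ccl4 differed by 1.11 with adjusted p = 0.0514.

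Memory-like genes moved in both directions, with 3 higher and 3 lower of 10 tested and a median of 0.09. Ly6c2 was at 243.7, 420.9 and 688.7 CPM in CD8 T cells against 0, 68.2 and 195.9 in CD4 T cells, and the mice did not overlap (2.74 ± 0.38, adjusted p = 4.69e-05). Klrd1 (chromosome 6, 129591782 to 129598775) rose by 2.85 ± 0.36 and Cd7, a surface protein of T and NK cells, by 1.75 ± 0.22. The chemokine receptor Ccr2 (-2.05 ± 0.25), Cd44 (-0.95 ± 0.24) and the integrin chain Itgb1 (-0.85 ± 0.23) fell, of which Itgb1 failed without mouse 9 or mouse 10. Il2rb differed by 0.74 with adjusted p = 0.152. Among genes outside the lists, Fam241a (2.97 ± 0.25) and Epsti1, an interferon-induced gene (1.92 ± 0.21), rose without overlap between CD8 and CD4 T cells. Tmem64, a membrane protein (-2.87 ± 0.28), Maf, a transcription factor of helper T cells (-2.74 ± 0.28), and Gadd45b, a stress-induced gene (-2.10 ± 0.29), fell. Tmem64 was at 4.79, 36.1 and 59.2 CPM in CD8 T cells and at 117.6, 294.5 and 436.3 in CD4 T cells, again without overlap.

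Genes of naive and recirculating cells were tested for 13 of 13 members of the list, and 2 rose and 1 fell. Dapl1 rose by 1.62 ± 0.32 and Ccr7 by 0.59 ± 0.15, both higher in all 8 mice, and Igfbp4 fell by 1.31 ± 0.31. Lef1 (0.04), Tcf7 (-0.28), Klf2 (-0.11) and Il7r (-0.09) did not pass, and the median of the list was -0.21. The rise of Dapl1 and Ccr7 was therefore not shared by most of the list.

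Of 16 residency genes only 6 were tested, of which 5 fell and none rose (median -0.98). They were Rgs1 (-0.99 ± 0.19), Nr4a1 (-1.08 ± 0.20), Crem (-0.98 ± 0.20), Rgs2 (-0.68 ± 0.21) and the transcription factor Bhlhe40 (-1.88 ± 0.24). Surface CD103, whose gene Itgae is on the residency list, ran the other way (3.77 ± 0.83). Rgs2 failed without mouse 2, 7, 9 or 10. Nr4a1, Crem and Rgs2 are also induced within minutes to hours of a stimulus. Cells of both kinds had gone through the same 45 min enzyme digestion, and its part in the levels of such genes was not tested. Immediate-early and heat-shock genes fell in 13 of 20 and rose in 1 (median -0.76), and 1 of the 13, Nr4a1, is on both lists. Among those that fell were the AP-1 subunits Junb (-1.13), Jund (-1.02) and Fosb (-1.26) and the heat-shock gene Hspa1b (-1.71 ± 0.26), the last being hard to tell from its copy Hspa1a, and Dusp2, a phosphatase of activated lymphocytes, rose by 1.51. Among the remaining lists, the cytokine-induced kinase Pim1 (-1.18) and the interferon-induced surface protein Ly6a (-1.28) fell, as did Icos (-1.28), a costimulatory receptor, and Tyrobp (-1.22 ± 0.32), a signalling adaptor of NK and myeloid cells and the only gene tested of the innate-like list.

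Cd74 (-2.13 ± 0.65, adjusted p = 0.0309) and H2-Aa (-2.08 ± 0.48), genes of MHC class II antigen presentation, fell too. The summed dendritic cell markers were 672.6 CPM in CD8 T cells and 3205 CPM in CD4 T cells, and the gamma-delta T and ILC2 markers, to which Rora (-1.99 ± 0.24) belongs, were 108.4 against 717.6 CPM. Macrophage markers were 653.9 CPM in CD8 and 950.2 CPM in CD4 T cells, and 1 of the 3 tested, Lyz2, fell by 1.00 ± 0.29, failing without mouse 3, 5 or 7 and with DESeq2. The part of such cells in these differences was not tested. Tyrobp failed without mouse 9 and with DESeq2. Cd74 failed without mouse 5, 7, 8 or 9, with values from -3.02 to -1.54 over the alternatives.

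**Figure D4:**
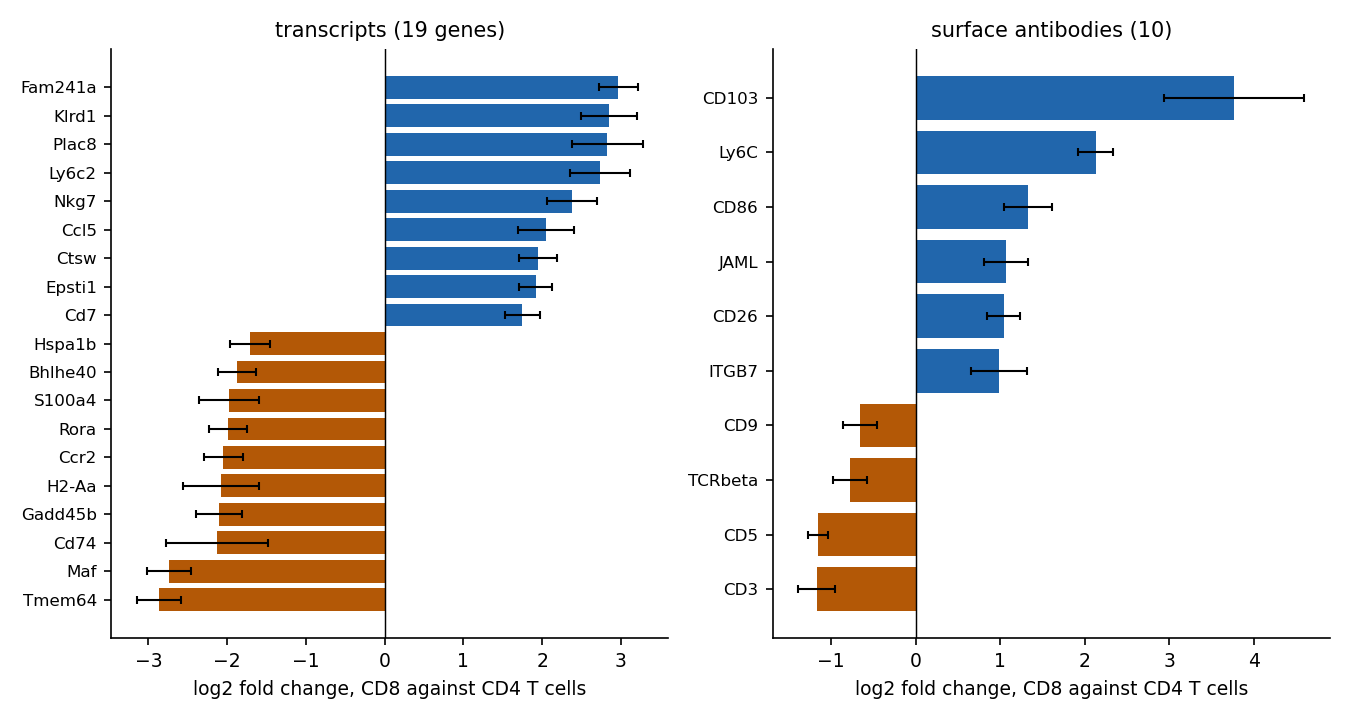
Difference between CD8 and CD4 T cells on the log2 scale with SE for 19 genes and 10 antibodies in the 8 mice; values above 0 (blue) are higher in CD8 T cells and values below 0 (brown) lower. Nkg7 reaches 2.38, Tmem64 -2.87 and the CD103 antibody 3.77.

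Of 32 surface antibodies tested in the same mice, the gating ones left out, 10 (31.2%) passed, 6 higher (18.8%) and 4 lower (12.5%) in CD8 T cells. With antibody totals in place of TMM factors 11 passed, 9 higher and 2 lower. Ly6C, the protein of the gene Ly6c2 and its copy, was at 4.24, 7.72 and 11.3 counts per cell in CD8 T cells (lowest, median and highest mouse) and at 0.970, 1.46 and 2.11 in CD4 T cells. The mice did not overlap, and the difference was 2.13 ± 0.21 on the log2 scale (edgeR adjusted p = 1.75e-05), so this protein moved in the same direction as its transcript. CD86 (1.33), CD26 (1.04), JAML (1.07) and ITGB7 (0.99) were also higher, JAML failing without mouse 10 and ITGB7 without mouse 1, 3, 5, 8 or 10.

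CD103 was at 1.25, 8.75 and 16.4 counts in CD8 T cells against 0.0741, 0.165 and 14.3 in CD4 T cells, where mouse 9 alone reached 14.3 and mouse 7 reached 4.75. The difference was 3.77 ± 0.83 with the mouse as a block (adjusted p = 0.00408), and 1.92 without it, where it did not pass. CD5 was lower in all 8 mice without overlap, at 77.9, 126.5 and 172.3 counts against 204.4, 244.3 and 319.8 (-1.16 ± 0.12, adjusted p = 1.75e-05). CD3 (-1.17), TCRbeta (-0.78) and CD9 (-0.66) were lower too, TCRbeta and CD9 failing when antibody totals were used for scaling and CD9 also without mouse 3. CD44 differed by -0.82 with adjusted p = 0.0567, CD226 by 0.49 with adjusted p = 0.0686, and CD24 (-0.55), CD43 (0.11) and CD127 (0.11) did not pass. CD137, CD278 and Sca1 and the isotype controls, at 0.0670 counts per cell or less for the latter, were too low to be tested.

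CD4+ CD8+ double-positive cells with Rag1 or Dntt, the thymocyte phenotype, were found among the same aortic cells (146 cells, median 4253 UMIs), unevenly over mice: 57 in mouse 3, 45 in mouse 10, 19 in mouse 6, 15 in mouse 9 and at most 3 in each of the others. In mice 3, 9 and 10, of 3 different groups, members and these cells were compared with the mouse as a block, and 1109 of 3796 genes (29.2%) passed, 575 higher (15.1%) and 534 lower (14.1%) in CD8 T cells. Genes of mature, recirculating T cells were higher and genes of thymocytes lower in CD8 T cells. Their gate differed from the other in Rag1, Dntt, Trdc and the limits on the CD4 antibody. Members had to lack Rag1 and Dntt, and double-positive cells had to carry Rag1 or Dntt. The lower level of thymocyte genes and the higher level of genes of mature T cells in members were therefore set, at least in part, by the gates. With library totals, the median over all genes moved from -0.09 to -0.78 and 1981 genes passed, 321 higher and 1660 lower, so that the higher share went from 51.8% to 16.2%. Of the 1109 genes, 14 changed sign under that scaling. Without mouse 3, 710 genes passed.

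Of 12 tested naive and recirculation genes 10 rose (median 3.73), among them S1pr1 by 6.08 ± 0.36, Il7r by 5.89 ± 0.41 and Ccr7, at 522.5 CPM against 5.43. Tcf7 (-1.86 ± 0.20) and Satb1 (-1.25 ± 0.17), which thymocytes express highly, were lower. All 6 of the cytotoxic and effector genes that passed, of 8 tested, rose (median 4.69), as did 7 of 8 memory-like genes (median 2.66), with Nkg7 at 582.9 CPM against 5.43 and Ly6c2 at 508.8 against 2.71. The survival gene Bcl2 rose by 4.25 ± 0.39. Dapl1 was at 0 in double-positive cells, and was at least 56.0-fold higher in members, with 3 counts over the group taken as the floor. Nt5e, which encodes CD73, was at least 17.9-fold higher and Cd226 at least 16.5-fold.

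Of 14 tested genes of thymic maturation 11 fell and 1 rose (median -4.48, or -4.14 with genes at 0 taken at their bound). Cd24a was at 1.14 CPM in members against 567.3 CPM, and Arpp21, a thymocyte RNA-binding protein, at 1.14 against 821.0. Endou was at least 135.2-fold lower in members and Dgkeos at least 71.8-fold. The transcription factor Sox4 (-4.96 ± 0.32) and the thymic chemokine receptor Ccr9 (-3.48 ± 0.27) fell too. Proliferation genes fell in 12 of 17 and rose in none (median -2.43), with Mki67 at -3.25 ± 0.80. Trbc1 (-2.03 ± 0.20), Trbc2 (-1.46 ± 0.15) and Cd8b1 (-0.68 ± 0.17) were lower in members as well, Cd8b1 failing without mouse 9 and Mki67 without the mouse as a block.

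Whether the mutation in myeloid cells went with a change in aortic CD8 T cells was asked first of their number. CD8 T cells made up 6.31%, 4.22%, 8.17%, 4.11% and 1.84% of the kept leukocytes in Jak2WT mice 1 to 5, and 1.65%, 2.08%, 3.12%, 1.70% and 2.02% in mutant mice 6 to 10. The counting intervals (95%, Wilson) ran from 6.20% to 10.7% for mouse 3 and from 0.802% to 3.37% for mouse 6. The mean was 4.93% ± 2.41 (SD, n = 5) in Jak2WT and 2.11% ± 0.592 (n = 5) in Jak2V617F Myel mice, and the ranges overlapped through Jak2WT mouse 5. The difference of -2.82 percentage points had p = 0.0318 in a two-sided exact permutation test, where 5 against 5 mice can reach 0.00794, and an adjusted exact permutation p of 0.191 over the 6 share comparisons made here. It did not pass after adjustment. Leaving out 1 mouse gave -3.589 to -2.004 points, with a raw exact p of 0.0635 without mouse 1, 2, 3, 4, 6 or 9.

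The share is relative to all leukocytes of a mouse, so fewer CD8 T cells and more cells of other kinds cannot be told apart. Among CD8 and CD4 T cells alone, CD8 T cells were 52.7% ± 14.1 (SD, n = 5) in Jak2WT and 50.3% ± 12.3 (n = 5) in mutant mice, from 30.8% to 66.7% and from 36.0% to 70.0%. These overlapped widely, with a difference of -2.42 points (exact permutation p = 0.746) that turned to 1.08 without mouse 1 and 1.15 without mouse 10. Within mice of high Xist level (mice 1, 2, 6 and 7), the leukocyte share was 5.26% in Jak2WT and 1.87% in mutant mice, and within mice of low Xist level 4.71% and 2.28%. The mean share was therefore lower in mutant mice in both Xist classes, with 2 and 3 mice per genotype. In the low class the ranges overlapped, at 1.84% to 8.17% in Jak2WT and 1.70% to 3.12% in mutant mice. In the high class they did not, at 4.22% to 6.31% and 1.65% to 2.08%.

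CD44+ cells made up 41.7% ± 7.07 (SD, n = 5) of members in Jak2WT and 46.95% ± 21.8 (n = 5) in mutant mice, from 33.3% to 50.0% and from 28.6% to 81.0%. The difference of 5.29 points gave an exact permutation p of 0.683, 0.746 after adjustment, and turned to -3.21 without mouse 7. Within mice of high Xist level the means were 40.1% and 54.8%, and within those of low level 42.7% and 41.7%. The 2 mice with aneurysm had CD8 shares of leukocytes of 2.08% and 1.70%, against 3.93% ± 2.32 (SD) in the other 8 (exact permutation p = 0.311), CD8 shares of T cells of 46.7% and 48.65% (p = 0.622 in the same exact test) and CD44+ shares of 81.0% and 38.9% (exact p = 0.222). With 2 against 8 mice the smallest p is 0.0222.

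**Figure D5:**
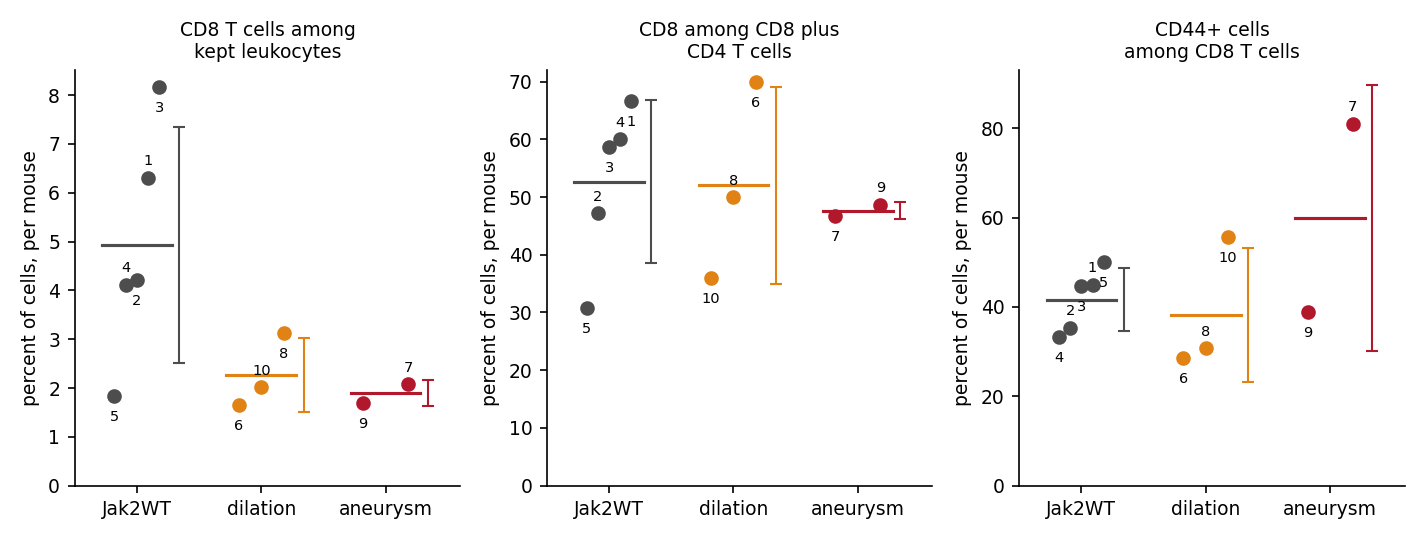
Percent of CD8 T cells among kept leukocytes, percent of CD8 among CD8 and CD4 T cells, and percent of CD44+ cells among CD8 T cells; each numbered point is a mouse, lines are group means and bars SD. The leukocyte share of the 5 mutant mice lies between 1.65% and 3.12%, and mouse 7 stands at 81.0% CD44+ cells.

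Transcripts of CD8 T cells were then compared between 4 Jak2WT (mice 1, 2, 3 and 5) and 4 mutant mice (7, 8, 9 and 10). With edgeR 0 of 1927 genes (0.0%) passed, while 191 had an unadjusted p under 0.05 and DESeq2 called 1. The markers of identity did not pass, with Cd8b1 at 656.2 ± 269.0 CPM (SD, n = 4) in Jak2WT and 834.1 ± 140.5 in mutant mice, and Trac at 381.6 ± 21.9 and 419.9 ± 74.1. The smallest p belonged to Plac8, Cd74 and H2-Aa, each with adjusted p = 0.289. Plac8 was at 188.3 ± 40.7 CPM in Jak2WT and 86.7 ± 35.8 in mutant mice (-1.24 ± 0.30, SE), from 128.3 to 216.9 against 37.0 to 119.7. The groups did not overlap, which follows in part from naming Plac8 for its small p. They did not overlap either with mice 4 and 6 added (350.4 and 115.2 CPM). Cd74 differed by -2.42 ± 0.60, with 875.9 CPM in Jak2WT mouse 3, which was 113.6 CPM without its single MHC class II-rich member. H2-Aa was at 320.3 CPM in that mouse and at 31.6 without the same cell. Over the alternatives Cd74 ran from -2.74 to -0.51 and H2-Aa from -2.08 to -0.87.

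No gene of JAK-STAT signalling and cytokine response passed, in a list that holds kinases of the pathway as well as induced genes. Socs3 (0.16), Pim1 (0.33), Bcl2 (-0.39) and Jak1 (0.11) were 4 of 7 tested. The list median was 0.11, against a median of 0.03 over all genes. With library totals that median of all genes moved to 0.18. Of the interferon response genes 3 were tested and none passed (median 0.12). Naive genes had a median of -0.25 over 12 tested, with Lef1 at -0.62 ± 0.27 (adjusted p = 0.445) and Klf2 at -0.53 ± 0.19 (adjusted p = 0.38), and cytotoxic genes a median of 0.15 over 7, with Nkg7 at 0.43 ± 0.19 (adjusted p = 0.452) and Ccl5 at 0.32 ± 0.35. No list had a member that passed.

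Gzma, the granzyme called by DESeq2 (6.47, adjusted p = 0.000229), was too rare to enter the edgeR fit. It was at 0, 0, 2.03 and 0 CPM in Jak2WT mice 1, 2, 3 and 5 and at 67.9, 56.0, 80.3 and 335.1 in mutant mice 7, 8, 9 and 10. These 8 mice did not overlap. However, Jak2WT mouse 4 was at 1219 CPM from 1 of its 6 members and mutant mouse 6 at 0, so that the order did not hold over all 10 mice, and the 70 UMIs of mutant mouse 10 also came from 1 cell. The whole signal was 190 UMIs in 13 cells, and edgeR called Gzma when mouse 1, 2, 5 or 8 was left out (6.13 to 6.55), since it then entered the fit. Without mouse 5, Vim (1.14) and Cd74 (-2.74) passed as well.

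Of 34 antibodies 0 passed by genotype (0.0%), 3 had an unadjusted p under 0.05 and DESeq2 called 0. JAML was at 1.61 ± 0.892 counts per cell (SD, n = 4) in Jak2WT and 4.30 ± 2.31 in mutant mice, and CD103 at 6.05 ± 4.05 and 12.3 ± 4.46, both with adjusted p = 0.431. CD44 was at 11.7 ± 2.36 and 19.1 ± 15.2.

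The 2 mice with aneurysm were also compared with the 2 dilation mice with enough members. All 8 mice with at least 10 members entered 1 fit, so the Jak2WT mice also set the spread behind each SE and p. With edgeR 0 of 2560 genes (0.0%) passed, and 145 had an unadjusted p under 0.05. DESeq2 called 1, the histone gene Hist1h2ap (-4.39, adjusted p = 0.0246). S100a6, a calcium-binding protein, was at 326.7 and 592.2 CPM in the mice with aneurysm against 64.0 and 134.0 (2.06 ± 0.42, adjusted p = 0.168). Tmpo, a nuclear lamina protein, was at 28.7 and 43.2 CPM against 104.0 and 181.9 (-2.11 ± 0.44, adjusted p = 0.168), and the tubulin Tubb5 at 240.6 and 326.7 against 479.8 and 852.0 (-1.32 ± 0.30, adjusted p = 0.196). These 3 genes were named for the smallest p, so their lack of overlap follows in part from that choice. In addition, 1 mouse decided whether genes passed. Without mouse 8, which leaves mouse 10 alone in its group and assumes that it varies like the others, 14 genes passed, all lower with aneurysm and including Mki67 (-5.21) and Top2a (-5.63). Mouse 10 held 71 of the 85 Mki67 UMIs and 95 of the 111 Top2a UMIs of all members, in 3 cells for each gene. Without mouse 9, 10 genes passed, all higher in mouse 7, including Xcl1 (5.02), Cxcr6 (3.65), Itgb1 (2.12) and S100a6 (2.40).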

How the data were processed

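Gene, surface antibody and hashtag counts of 32285 genes, 75 antibodies and 10 hashtags in 8471 barcodes were used as deposited. According to the methods and the file header, the authors made these UMI counts with Cell Ranger 6.0.2 on the mm10 mouse genome, and Seurat is named in the submitters' processing notes. No value had been normalised. Counting depended on 1 shared capture run, without replicate runs, and intervals and zero limits cover counting error only.

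The mouse was the replicate. The hashtag ratio of 3 took the place of the authors' HTODemux calls, which were an alternative (Seurat 5.3.0). Doublets of different mice were removed by the hashtag limit, those within a mouse only through the limits on other lineages' genes, and a separate caller was not used. UMIs were summed per mouse and cell kind where a sum had at least 10 cells (5 for the CD44 and CD24 sides) and tested with edgeR 4.0.16 in R 4.3.3 (filterByExpr, TMM, quasi-likelihood F test, Benjamini-Hochberg over all tested genes, threshold 0.05). Comparisons within mice had the mouse as a block because both sums came from the same animal, and their deviations correlated by 0.0256 to 0.310 for CD8 and CD4 T cells (6 of 8 mice over 0.1). Shares were compared by exact permutation over mice. Genes that made a gate stayed in the fit without a test. Gene positions are from GENCODE vM21 (GRCm38).

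Members and gene lists were chosen with earlier results of these data known. The text names list members by expression (2 to 4 per list) or because they passed, up to 10 genes per direction by size with adjusted p under 0.05 and at least 50 CPM (the 3 smallest p where fewer than 3 passed), and antibodies that passed or belong to a chosen panel. The CD44 limit and the genes shown by CD44 were chosen after their values were seen. Of 285 listed genes 284 were in the matrix. Some genes, 1 surface protein and a planned comparison that rests on it are not reported here. Alternatives were DESeq2 1.42.0, no filter on low counts, other limits on cells and antibodies, no block, other scaling and leaving out each mouse. The fits were tested on simulated data.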

Additional observations from a re-analysis of the deposited data

Results flagged for a closer look

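In groups of 4 mice, 52 sets of antibody counts and shares were searched for a mouse far from the others, and 4 had one, where chance gives about 1 in 20. The CD3 antibody averaged 11.46 counts per CD8 T cell in mutant mouse 8 against 2.889 to 3.286 in the other 3 mutant mice, and CD4 T cells of mice 8 and 1 were also high, at 16.46 and 17.7 counts. The CD63 antibody averaged 50.0 counts in mutant mouse 10 against 0.4286 to 1.056, of which 1 cell held 893 counts, and was 0.4118 without that cell. CD26 averaged 2.9 counts in Jak2WT mouse 1 against 2.471 to 2.5 in the other 3 Jak2WT mice, and CD137 0.1 counts in the same mouse against 0.0 in the others, a level too low to be read.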

How the results depend on the processing

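The CD8 share of leukocytes kept its direction under every alternative, with -3.589 to -2.004 points on leaving out a mouse and a raw exact permutation p of 0.0635 without mouse 1 (-2.47), 2 (-2.993), 3 (-2.004), 4 (-3.02), 6 (-2.699) or 9 (-2.712). The CD8 share of T cells turned from -2.419 to 1.078 without mouse 1 and 1.147 without mouse 10 (-7.897 to 1.147 over all mice left out), and the CD44+ share from 5.286 to -3.215 points without mouse 7 (-3.215 to 9.88). Without a filter on low counts 443 genes passed between CD8 and CD4 T cells, 61 by CD44, 6 by CD24, 50 by genotype and 42 between aneurysm and dilation. Without the mouse as a block the counts were 165 genes and 5 antibodies between CD8 and CD4 T cells and 12 genes by CD44. The CD44 comparison gave 10 genes with HTODemux calls and 15 to 29 on leaving out a mouse (29 without mouse 3). The comparison with double-positive cells gave 703 genes with DESeq2, 638 with fewer cells per sum, 1981 with library totals and 710 to 1193 on leaving out a mouse. DESeq2 called 1 gene by genotype and 1 between aneurysm and dilation, and leaving out a mouse gave 0 to 3 and 0 to 14. The CD44 limit and the library totals were chosen after seeing the data. Of 1953 values of single listed or named genes and antibodies under alternatives, 1758 kept their side of the threshold, 183 lost and 10 gained it, and 2 turned, both of H2-Ab1 against double-positive cells (-0.32 with HTODemux calls and -0.11 without mouse 3). The causes were not tested. Alternatives planned for 1 comparison that is not reported here are left out.

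At this depth, genes found in few of the 179 cells, granzymes and checkpoint receptors among them, mostly did not enter the fits, and mice 4 and 6 had 6 and 7 members.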
